A study of Mus musculus with 4 samples.

Results

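The cells described here are Foxp3-expressing T cells from mouse prostate tumours. They were chosen by their own counts: a cell was kept with at least 200 detected genes and at most 20% mitochondrial unique molecular identifiers (UMIs), and it was a member with at least 2 UMIs summed over the T cell receptor genes Cd3d, Cd3e and Cd3g and at least 1 UMI of Foxp3. The rule found 141 cells among 1030 cells with at least 2 CD3 UMIs and 3381 kept cells in all. DKO-labelled replicates 1 and 2 held 26 and 39 of them, TKO-labelled replicates 1 and 2 held 51 and 25. Foxp3 and the CD3 genes made the rule, so their levels are given as a description and without a test. The label was checked with 4 other markers of regulatory T cells. Ikzf2 was detected in 97.2% of the 141 cells, Tnfrsf4 in 92.2%, Il2ra in 81.6% and Il1rl1 in 75.2%.

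Droplet-based 3′ single-cell RNA sequencing measured these cells in 4 libraries, 2 per genotype. Mice labelled DKO carried Nkx3.1CreERT2 with floxed alleles that include Smad4 L/L, and mice labelled TKO carried the same alleles and floxed Pygo2 (Pygo2 L/L). The Cre is driven from Nkx3.1, a gene of the prostate epithelium, and needs tamoxifen, so both genotypes share all but the Pygo2 allele and the T cells are not the cells in which the Cre is meant to act. Tumours were collected 10 or 17 weeks after tamoxifen, but the labels do not say which library is from which time. After enzymatic dissociation, lysis of red cells and Annexin V removal of dying cells, samples were marked with hashtag antibodies and pooled. Shares therefore describe cells that survived these steps. Whether the 2 libraries of a genotype stem from different animals is not said in the labels, and p-values therefore speak only to the spread among these 4 libraries, which may be technical.

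Regulatory T cells are CD4 T cells that restrain other immune cells. Their identity rests on the transcription factor Foxp3, and their growth on interleukin 2, which they bind with the high-affinity receptor chain Il2ra. In tissues and tumours many of them carry the interleukin 33 receptor Il1rl1 (ST2), the transcription factor Gata3 and the repair factor amphiregulin (Areg), and they can activate TGF-beta at the cell surface through the integrin that pairs Itgav with Itgb8.

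The 4 libraries held 617 to 1208 kept cells and 9167770 to 18360201 UMIs. No barcode was shared between libraries, and in every kept cell the hashtag that the labels give for its library led the hashtag counts. Both would follow from the way the matrices were made if a pooled load was split by hashtag, which the labels do not state. The median depth of the Foxp3 T cells was 9805.5 and 16015 UMIs in the DKO-labelled and 12360 and 11646 UMIs in the TKO-labelled libraries, and over all libraries it was 12069 UMIs against 11556 in the other CD3 cells. Pygo2, whose allele separates the genotypes (chromosome 3, 89430214 to 89435128, mm10), was read in cells with at least 20 epithelial marker UMIs and no CD3 UMI. It gave 6.78 and 9.42 CPM (UMIs scaled to a sum of 1000000) in DKO-labelled replicates 1 and 2. In TKO-labelled replicates 1 and 2 it gave 17.9 and 9.62 CPM. These levels rest on 7, 22, 22 and 4 UMIs in 25, 52, 27 and 13 cells. At these low counts Pygo2 was not seen to be lower in the TKO-labelled libraries, and no test was run. Neither the deleted exons nor the place of the 3′ tag is given in the sources used here, and this checks neither the deletion nor the labels. In the Foxp3 T cells Pygo2 had 2, 9, 8 and 5 UMIs, too few for a test of the genotypes.

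The rule needed a single Foxp3 UMI, and 33 of the 141 cells had no more than that, 15 had 2 and 93 had 3 or more. Cells just inside and just outside this limit differed in the other markers. Of the 33 cells with 1 Foxp3 UMI, 90.9% had Ikzf2, 72.7% Tnfrsf4, 57.6% Il2ra and 51.5% Il1rl1. Of the 889 CD3 cells with no Foxp3 UMI, 60.9% had Ikzf2, 22.8% Tnfrsf4, 29.9% Il2ra and 4.84% Il1rl1, and of the 93 cells with at least 3 Foxp3 UMIs 100% had Ikzf2 and 87.1% Il1rl1. At the other limit, 7 members had exactly 2 CD3 UMIs, of which 1 had Tnfrsf4, while 5 kept cells with Foxp3 had 1 CD3 UMI and 19 had none. Free RNA in droplets can give a stray UMI, and neutrophils, which lack Foxp3, measured it: 0.738% of 948 such cells had a Foxp3 UMI (0.297 to 1.52%, exact 95% binomial interval, counting error only), at a median of 7006 UMIs per cell. Among the 1030 CD3 cells the share was 13.7%, and among the 339 of these with a Cd8a or Cd8b1 UMI it was 8.55%. Cd4 was detected in 95 of the 141 Foxp3 T cells and a Cd8 UMI in 29 of them, which were kept.

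A few of the 141 cells also carried many transcripts of another cell type, and they bear on the results that follow. At least 20 UMIs of another class's defining markers were found in 8 cells, a limit set after these values were seen. Of these, 6 held 730 to 2943 UMIs of the collagen and matrix genes Col1a1, Col3a1 and Dcn, which define fibroblasts, 1 held 103 UMIs of epithelial markers and 1 held 32 UMIs of macrophage markers. In the other 133 cells the fibroblast count ended at 11 UMIs, with a median of 3. The 8 cells fell to the libraries as 1, 4, 3 and 0 (DKO-labelled replicates 1 and 2, then TKO-labelled replicates 1 and 2). They held 25.9%, 35.5% and 27% of the Foxp3 T cells' UMIs in the first 3 libraries. In 2 of the fibroblast-rich cells the rule was met with just 2 CD3 UMIs and 1 Foxp3 UMI, and these 2 had no Il2ra, Tnfrsf4 or Il1rl1 UMI. Among the 889 other CD3 cells 95 passed the same limit. No doublet caller was used and all 141 cells stayed in the counts, with values without the 8 cells (and, among the other CD3 cells, without the 95) given beside them where they differ.

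**Figure D1:**
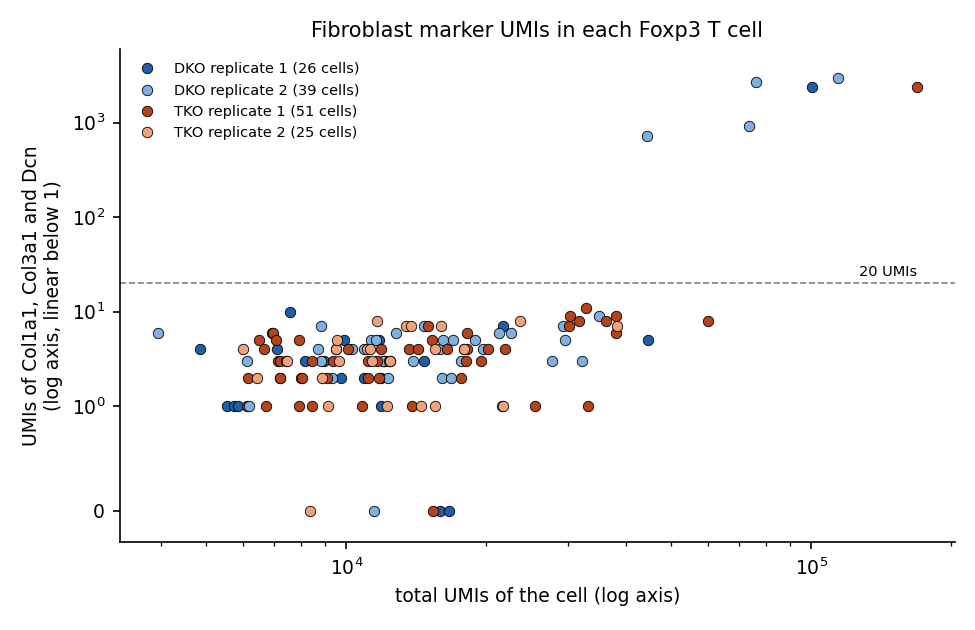
Each point is 1 of the 141 Foxp3 T cells, with its total UMIs on the horizontal log axis and its summed Col1a1, Col3a1 and Dcn UMIs on the vertical axis (log above 1), coloured by library. The dashed line marks 20 UMIs, and the 6 points above it hold 730 or more, with no cell between 11 and 730.

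The mean share of Foxp3 T cells among the CD3 cells was lower in the TKO-labelled libraries, but the exact test of 2 against 2 libraries cannot pass 0.05. They were 19.8% (13.4 to 27.7%) and 15.2% (11.0 to 20.2%) of the CD3 cells in DKO-labelled replicates 1 and 2, and 14.4% (10.9 to 18.5%) and 8.71% (5.72 to 12.6%) in TKO-labelled replicates 1 and 2, with exact 95% binomial intervals. The groups did not overlap, although the higher TKO-labelled library lay within the interval of both DKO-labelled ones. The means were 17.5 ± 3.30% and 11.5 ± 4.0% (SD, n = 2 libraries each), a difference of -5.97 percentage points (exact two-sided permutation test, p = 0.333, the smallest that 2 against 2 libraries allow). Without TKO-labelled replicate 2 the difference was -3.15 points and without TKO-labelled replicate 1 it was -8.80 points. When every cell was thinned to 2000 UMIs before the rule was applied, the shares were 9.76%, 10.7%, 7.35% and 3.85%, and the difference was -4.60 points. Without the cells rich in another class's markers they were 22.3%, 16.5%, 14.7% and 9.06%, again without overlap (difference -7.55 points). The groups overlapped under other limits, with TKO-labelled replicate 1 above DKO-labelled replicate 2. This held at a CD3 minimum of 1 UMI (11.9% against 11.1%, difference of means -2.62 points), at a Foxp3 minimum of 2 UMIs (12.7% against 12.1%, -4.12 points) and without cells holding a Cd8 UMI (19.3% against 16.2%, -4.99 points).

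Of all kept cells, Foxp3 T cells made up 4.21% and 5.14% in the DKO-labelled and 4.22% and 3.14% in the TKO-labelled libraries. The means were 4.68 ± 0.654% and 3.68 ± 0.767% (SD, n = 2 each), and the difference was -0.997 points (exact two-sided permutation test, p = 0.667). The groups overlapped in TKO-labelled replicate 1 and DKO-labelled replicate 1. Without the marker-rich cells they did not, at 5.35% and 6.29% against 4.84% and 3.61%, and the difference was -1.60 points (exact two-sided permutation test, p = 0.333). Here the limit was applied to every kept cell, not only to CD3 cells. It left 467 of 617 and 556 of 759 cells in the DKO-labelled libraries. In the TKO-labelled libraries 991 of 1208 and 692 of 797 cells stayed. How far the smaller denominators moved these shares was not tested.

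**Figure D2:**
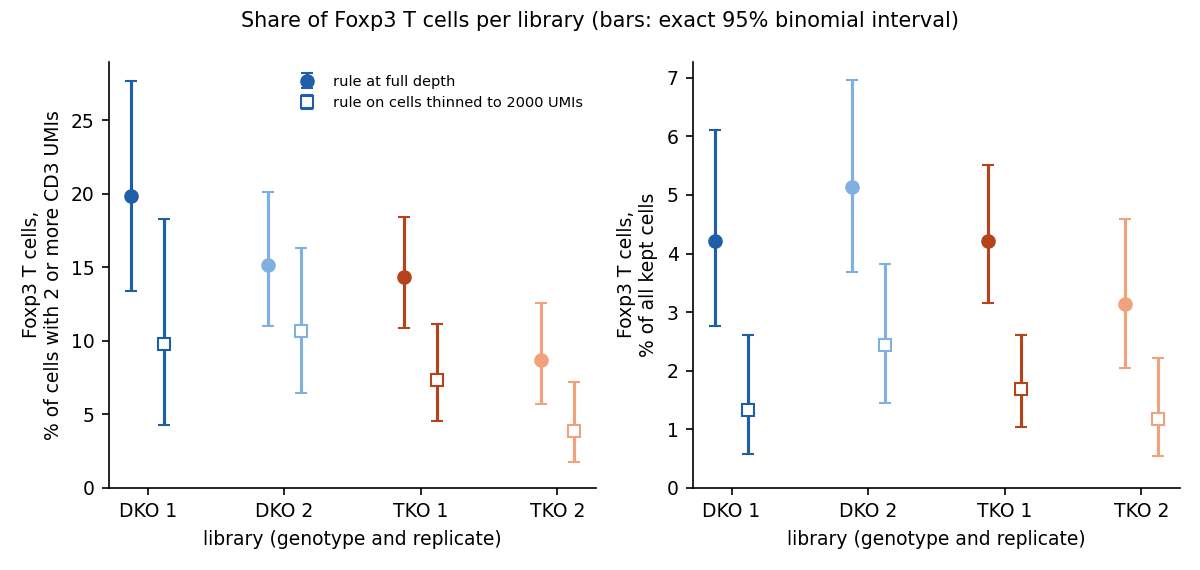
Foxp3 T cells as a percentage of the cells with at least 2 CD3 UMIs (left) and of all kept cells (right) in each library, with exact 95% binomial intervals; filled circles use full depth and open squares use cells thinned to 2000 UMIs. On the left the DKO-labelled points (19.8% and 15.2%) lie above the TKO-labelled points (14.4% and 8.71%), and on the right the groups overlap.

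Against the 889 other CD3 cells of the same libraries, the Foxp3 T cells carried the regulatory T cell programme at several times the level, in all 4 libraries. Counts were summed per library and class and tested with edgeR with the library as a block, and levels are CPM. Il2ra had 551, 471, 340.0 and 466 CPM in the Foxp3 T cells of DKO-labelled replicates 1 and 2 and TKO-labelled replicates 1 and 2, against 96.5, 84.9, 69.7 and 70.0 CPM in the other CD3 cells, and the log2 fold change was 2.50 ± 0.14 (SE, edgeR adjusted p = 2.1e-04). The 4 libraries of each class did not overlap. Ikzf2, which encodes the transcription factor Helios, had 2525, 2134, 2100.4 and 3686 CPM against 377, 463, 515 and 506 CPM, a log2 fold change of 2.46 ± 0.16 (SE, edgeR adjusted p = 4.6e-04). Tnfrsf4, the costimulatory receptor OX40, had 958, 678, 889 and 1269 CPM against 32.3, 50.0, 102 and 87.2 CPM, a log2 fold change of 3.88 ± 0.30 (SE, edgeR adjusted p = 0.0013). Il1rl1 had 889.7, 517, 414 and 1019 CPM against 35.1, 23.1, 12.6 and 9.96 CPM, and its log2 fold change was 5.17 ± 0.43 (SE, edgeR adjusted p = 0.003). For these 3 genes too, every library's Foxp3 T cells lay above every library's other CD3 cells. A lack of overlap between the classes, in either direction, was found for 1410 of 9773 tested genes.

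In all, 754 of 9773 tested genes passed an adjusted p of 0.05, 413 higher in the Foxp3 T cells (4.23% of tested genes) and 341 lower (3.49%). Without the cells rich in another class's markers, 858 were higher (10.8%) and 688 lower (8.63%) among 7974 tested, and 701 genes were called both ways. Leaving out DKO-labelled replicate 1 or TKO-labelled replicate 1 left 444 and 455 calls. Of the 15 genes listed as the regulatory T cell core, 14 were tested and 11 were higher, none lower, with a median log2 fold change of 2.26 against -0.03 over all tested genes. Without the marker-rich cells 13 of 14 were higher. The called members included Ikzf4, the partner of Helios known as Eos (3.40 ± 0.22), Tnfrsf18, the receptor GITR (2.04 ± 0.22), the inhibitory receptor Ctla4 (1.43 ± 0.17), and Lrrc32, which tethers latent TGF-beta (2.06 ± 0.34). Gpr83 had no UMI in any of the 141 cells. Itgae, the integrin chain CD103 (1.43 ± 0.36, edgeR adjusted p = 0.074), and Nrp1, a surface marker of thymus-derived regulatory T cells (0.78 ± 0.20, edgeR adjusted p = 0.054), missed the threshold. Lrrc32 lost its call without TKO-labelled replicate 1.

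Many genes known from regulatory T cells of tissues were higher. Of 22 listed genes 21 were tested, 13 were higher and 1 was lower, with a median of 1.92; without the marker-rich cells 15 were higher and 1 lower. Gata3 had 378, 243, 332 and 447 CPM against 41.8, 62.5, 57.1 and 95.8 CPM (2.46 ± 0.21), and Areg had 147, 282, 331 and 319 CPM against 41.3, 52.2, 28.6 and 42.5 CPM (2.70 ± 0.28). Both sets of 4 libraries lay apart, as did those of 1410 of 9773 tested genes in either direction. Klrg1, a receptor of late effector cells, had 223, 211, 130.1 and 197 CPM against 5.02, 3.37, 14.0 and 2.69 CPM, a log2 fold change of 5.01 ± 0.60 (SE, edgeR adjusted p = 0.01). Pparg, the nuclear receptor known from regulatory T cells of fat, had 126, 88.7, 124 and 100.1 CPM against 6.13, 6.49, 6.41 and 8.08 CPM (3.99 ± 0.22, edgeR adjusted p = 2.1e-04). Other called members were Ccr8, a chemokine receptor of tissue and tumour regulatory T cells (3.19 ± 0.22), Rora (1.24 ± 0.12), Batf (1.46 ± 0.19) and Ebi3, a subunit of interleukin 35 (2.94 ± 0.51). The lower gene was Gzmb, the protease granzyme B (-2.16 ± 0.41), which was detected in 24.8% of the Foxp3 T cells and 27.4% of the other CD3 cells. Il10 was found in 5 of the 141 cells and had no edgeR test. Neutrophils held Il10 in 3.69% of cells, and whether its UMIs in the Foxp3 T cells are background was not tested. The calls of Klrg1 (without DKO-labelled replicate 1 or 2), Ebi3 (without TKO-labelled replicate 1) and Gzmb (without any library but DKO-labelled replicate 1) were lost when that library was left out.

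The receptors and signal carriers that feed these cells followed in part. Both chains of the TGF-beta-activating integrin were higher: Itgb8 had 136, 172, 358 and 322 CPM against 6.69, 6.97, 3.20 and 8.08 CPM (5.30 ± 0.43, edgeR adjusted p = 0.0016), and Itgav had 2099.5, 1256, 1401 and 2239 CPM against 288, 351, 335 and 271 CPM (2.45 ± 0.24, edgeR adjusted p = 0.0033). They were 2 of the 4 genes called higher, with none lower, among 12 tested genes of TGF-beta handling (median 0.34). Among 13 genes of interleukin 2 and STAT5 signalling 5 were higher, including Stat5a (1.83 ± 0.20), and 1 was lower, the survival factor Bcl2. It had 68.2, 47.3, 103 and 62.5 CPM in the Foxp3 T cells and 478, 415, 826 and 481 CPM in the other CD3 cells (-2.98 ± 0.14, edgeR adjusted p = 1.4e-04). Of 12 costimulatory and TNF receptors 5 were higher and none lower, including Tnfrsf9, the receptor 4-1BB (2.65 ± 0.19), and Cd2 (1.89 ± 0.15). Among 8 receptors and adaptors of the interleukin 1 family, Il1rl1 and Il18rap (1.58 ± 0.27) were higher and no other passed. The Il18rap call was lost without TKO-labelled replicate 2.

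Genes that guide cells to tissues moved both ways. Of 20 tested chemokine receptors and homing molecules 7 were higher and 3 lower (median 0.19). Ccr6, a receptor of mucosal and skin homing, had 57.7, 61.1, 92.2 and 147 CPM against 12.3, 11.3, 9.81 and 12.4 CPM (2.90 ± 0.28, edgeR adjusted p = 0.0012). Ccr9, the gut-homing receptor, had 55.1, 32.3, 89.1 and 78.2 CPM against 1.67, 5.05, 27 and 5.65 CPM (2.94 ± 0.49, edgeR adjusted p = 0.016), and was detected in 8, 11, 26 and 8 Foxp3 T cells. Integrin Itga4 was higher (1.29 ± 0.19), while the receptor Cxcr6 (-1.91 ± 0.28) and the selectin ligand Selplg (-0.89 ± 0.13) were lower. Among 13 suppressive mediators 5 were higher, namely Ctla4, Ebi3, Havcr2 (2.60 ± 0.43), the adenosine-forming enzyme Nt5e (0.65 ± 0.12) and Pdcd1 (0.65 ± 0.15), and 2 were lower, Gzmb and the pore protein Prf1, whose 5 UMIs in the Foxp3 T cells all came from TKO-labelled replicate 1. Nt5e and Pdcd1 lost their call when any 1 library was left out, Havcr2 without either DKO-labelled library, Ccr9 without replicate 2 of either genotype and Prf1 without replicate 1 of either genotype.

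Most cytotoxic genes, and some genes of naive and helper T cells, were lower. All 15 listed cytotoxic genes were tested, 12 were lower and none higher (median -2.43). Gzma, granzyme A, had 1, 1, 2 and 1 UMIs or 2.62, 1.15, 2.05 and 3.13 CPM in the Foxp3 T cells against 317, 120.0, 510.1 and 131 CPM (-7.12 ± 0.32, edgeR adjusted p = 1.4e-04), and the chemokine gene Xcl1 had 10.5, 3.46, 7.17 and 6.25 CPM against 177, 235, 249.7 and 221 CPM (-5.13 ± 0.29, edgeR adjusted p = 2.1e-04). Among 11 genes of naive and central memory T cells 5 were lower, including the transcription factors Tcf7 (-2.41 ± 0.48), Satb1 (-1.76 ± 0.16) and Bach2 (-1.91 ± 0.19), and 1 was higher, the lymph node homing receptor Ccr7 (1.57 ± 0.32). Of 20 lineage transcription factors 4 were higher, among them Id2 (2.14 ± 0.13), Tox (1.79 ± 0.15) and Gata3, and 6 were lower, among them Eomes (-2.63 ± 0.47) and Tbx21 of T helper 1 cells (-2.46 ± 0.50). Tbx21 was detected in 10 of the 141 cells. Of 7 tested helper cytokines only Tnf passed (-2.23 ± 0.31), lower in the Foxp3 T cells. The Tcf7 call was lost without either DKO-labelled library, that of Ccr7 without any library but DKO-labelled replicate 2 and without the marker-rich cells, that of Eomes likewise without any library but DKO-labelled replicate 2, and that of Tbx21 without either TKO-labelled library.

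By the smallest p among genes of at least 20 CPM, the leading genes included several outside the lists. Pcsk1, a protease that matures prohormones, had 105, 48.4, 99.3 and 96.9 CPM against 4.46, 2.89, 5.21 and 3.77 CPM (4.36 ± 0.23, edgeR adjusted p = 2.1e-04), and Neb, which encodes the giant muscle protein nebulin, had 209.9, 129, 90.1 and 197 CPM against 8.36, 8.90, 6.41 and 7.0 CPM (4.24 ± 0.24, edgeR adjusted p = 2.1e-04). The Foxp3 T cells of every library lay above the other CD3 cells of every library for both. The classes were apart, in either direction, for 1410 of 9773 tested genes. Rrad (2.32 ± 0.14), the histone variant H2afz (1.92 ± 0.12), the TNF receptor adaptor Traf1 (2.27 ± 0.16) and Bmyc (2.92 ± 0.20) completed the higher set with genes already named and Zbtb46. The lower set held Cd163l1 (-5.08 ± 0.38) and the inhibitory receptor Klrc1, with 2 UMIs in the Foxp3 T cells, Actn2 (-3.58 ± 0.29), the thrombin receptor F2r (-2.68 ± 0.22), Fgf13 (-2.89 ± 0.24), the chemokine Cxcl13 (-2.91 ± 0.25), St3gal3 (-2.73 ± 0.23), Sidt1 (-3.12 ± 0.27) and Atp8b4 (-2.99 ± 0.26). Zbtb46, a transcription factor known from classical dendritic cells, was detected in 18, 22, 33 and 15 Foxp3 T cells per library and had 181, 118, 166 and 181 CPM against 21.7, 21.2, 24.2 and 17.2 CPM (2.91 ± 0.20, edgeR adjusted p = 4.2e-04). Of the other 5 dendritic cell markers, Xcr1 and Siglech had no UMI in the Foxp3 T cells of 3 libraries, and none of the 5 had enough counts for the test. Cd209a was missing only from TKO-labelled replicate 2, Flt3 only from DKO-labelled replicate 1, and Clec9a from both DKO-labelled libraries. With Zbtb46 the 6 markers summed to 287, 122, 311 and 179 CPM by library. Without the 8 marker-rich cells the sums were 380, 180, 389 and 179 CPM. The limit of 20 UMIs did not use the dendritic list.

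**Figure D3:**
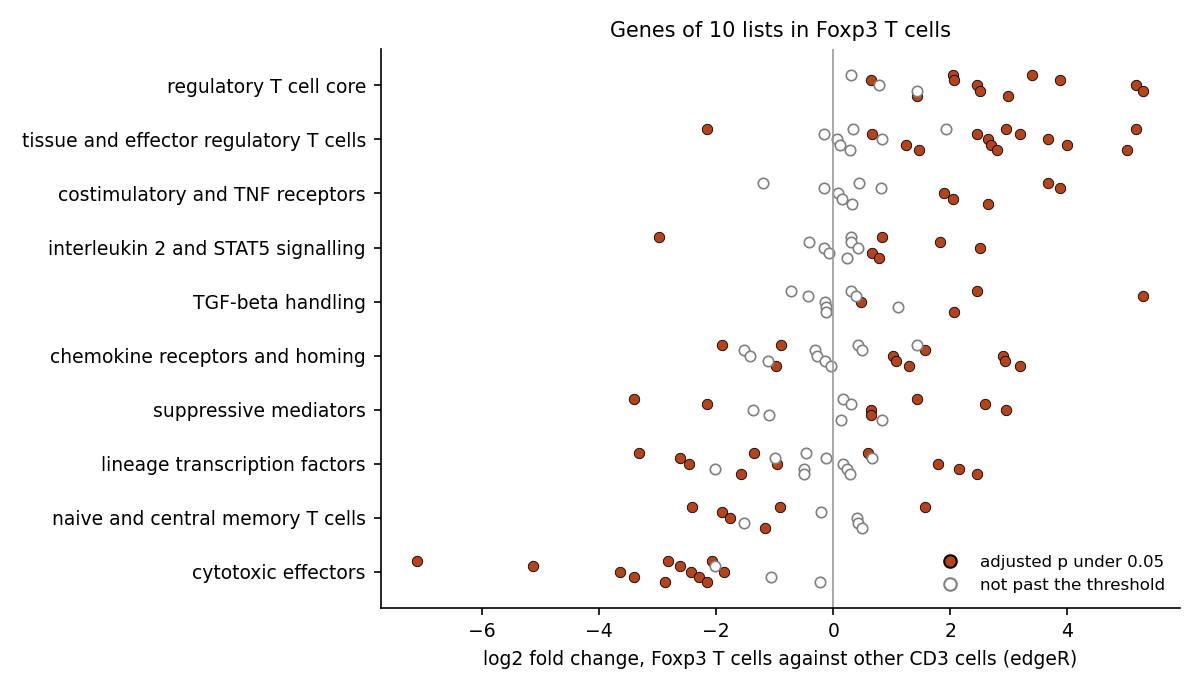
Each point is a tested gene of 1 of 10 lists, placed by its log2 fold change between the Foxp3 T cells and the other CD3 cells; filled points have an edgeR adjusted p under 0.05. The core and tissue lists lie mostly to the right of 0 (medians 2.26 and 1.92), and the cytotoxic list lies to the left (median -2.43).

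The other CD3 cells include CD8, gamma-delta and natural killer-like T cells, so a closer comparison set the 73 Foxp3 T cells with a Cd4 UMI and no Cd8 UMI against 136 CD4 cells without Foxp3 or Cd8. The latter numbered 13 and 16 in the DKO-labelled and 41 and 66 in the TKO-labelled libraries. Of 4517 tested genes 180 were higher (3.98%) and 175 lower (3.87%), and without the marker-rich cells 547 of 4307 were called (12.7%). Leaving out DKO-labelled replicate 2 or TKO-labelled replicate 2 left 158 and 159 calls. Most of the regulatory T cell core held in this comparison: 9 of 13 tested genes were higher and none lower (median 1.52 against -0.00222 over all genes). Il2ra had 666, 840.4, 457 and 403 CPM against 92.4, 154, 27.1 and 39.0 CPM (3.15 ± 0.29, edgeR adjusted p = 1.4e-04), and Ikzf2 had 3983, 4422, 2689 and 3705 CPM against 897, 673, 377 and 323 CPM (2.80 ± 0.21, edgeR adjusted p = 1.2e-04). Both classes were apart in all 4 libraries, as was so for 605 of 4517 tested genes in either direction. Ctla4 was 1339, 529, 505 and 599 CPM against 625, 429.8, 437 and 518 CPM and did not pass (0.45 ± 0.21, edgeR adjusted p = 0.28).

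Some of the tissue genes also differed between these 2 kinds of CD4 cells. Of 17 tested tissue and effector genes 8 were higher and none lower. Il1rl1 had 1500.2, 1165, 341 and 769 CPM against 272, 168, 54.2 and 33.9 CPM (3.05 ± 0.33, edgeR adjusted p = 6.6e-04), Klrg1 323, 383, 141 and 201 CPM against 21.7, 37.4, 16.2 and 1.70 CPM (3.89 ± 0.44, edgeR adjusted p = 6.1e-04), and Tnfrsf9 2115, 2417, 1597 and 2391 CPM against 495, 406, 347 and 251 CPM (2.53 ± 0.20, edgeR adjusted p = 1.2e-04). In both classes Il1rl1 was higher in each DKO-labelled library than in each TKO-labelled one, a contrast that was not tested within these classes. Over all 141 Foxp3 T cells the genotype groups overlapped for Il1rl1. Among those cells 2532 of 7483 tested genes had no overlap between the genotypes, and this share was not counted within the CD4 classes. Il1rl1 was detected in 75.2% of the Foxp3 T cells, 11.0% of the CD4 cells without Foxp3, 4.84% of the CD8 cells and 2.74% of the neutrophils (thinned to 2000 UMIs, 56.0%, 7.35%, 0.968% and 1.06%). Other genes among the 12 with the smallest p were Hopx (2.41 ± 0.24), Tox (1.78 ± 0.18), H2afz (1.33 ± 0.14), Dst (2.48 ± 0.27), Hacd3 (1.95 ± 0.22), Swap70 (2.16 ± 0.26) and Faim (2.13 ± 0.27). For the TGF-beta genes, Itgb8 (3.81 ± 0.53), Itgav (2.34 ± 0.27) and the receptor chain Tgfbr1 (1.54 ± 0.26) were higher, whereas Tgfbr2 was lower (-1.21 ± 0.24), a call lost without replicate 2 of either genotype.

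Some genes of resting and circulating T cells were lower in the Foxp3 T cells. Of 11 naive and central memory genes 4 were lower and none higher (median -1.84). Tcf7 had 0, 6.49, 0 and 42.4 CPM against 81.6, 70.1, 161 and 233 CPM (-3.86 ± 0.67, edgeR adjusted p = 0.0095), and S1pr1, the receptor by which T cells leave lymph nodes, had 6.47, 45.4, 2.32 and 31.8 CPM against 97.9, 206, 224 and 423 CPM (-3.60 ± 0.52, edgeR adjusted p = 0.0037). Tcf7 was detected in 7.80% of all 141 Foxp3 T cells and in 69.1% of the CD4 cells without Foxp3, and S1pr1 in 19.1% and 61.8%. After thinning to 2000 UMIs the shares were 2.84% and 26.5% for Tcf7 and 3.55% and 31.6% for S1pr1. The 6 lower genes with the smallest p were Ms4a4b (-2.76 ± 0.24), Bcl2 (-4.39 ± 0.37), the interleukin 12 receptor chain Il12rb2, Epb41 (-2.38 ± 0.24), St8sia1 and Bach2 (-2.72 ± 0.31). In these Foxp3 T cells Il12rb2 had 1 UMI and St8sia1 2 UMIs, each in a single library, against 13, 25, 64 and 33 UMIs of Il12rb2 and 18, 22, 39 and 98 of St8sia1 in the CD4 cells without Foxp3, so no fold is given for them. The ligands Cd40lg (-3.55 ± 0.61) and Tnfsf8 (-2.01 ± 0.26), by which helper T cells act on other cells, were the 2 of 3 tested helper cytokine genes that passed, and both were lower. Without DKO-labelled replicate 2 the calls of Tcf7 and Cd40lg were lost.

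**Figure D4:**
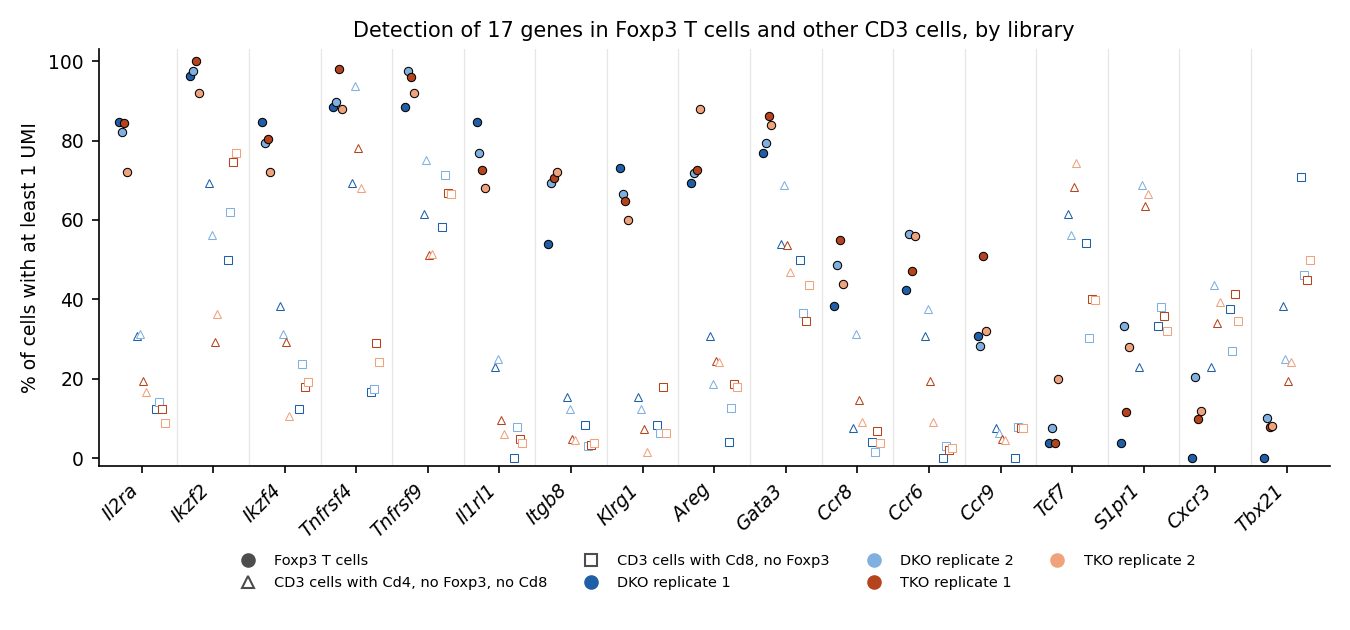
Percentage of cells with at least 1 UMI of each of 17 genes, with 1 point per library (colour), in the Foxp3 T cells (filled circles), CD4 cells without Foxp3 (triangles) and CD8 cells (squares). From Il2ra to Ccr9 every filled point lies above all open points, except for Tnfrsf4, where 1 library of the CD4 cells overlaps, and for Tcf7 the filled points lie lowest.

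The Foxp3 T cells were not all alike. Among the 133 without the marker-rich cells, Il1rl1 was detected in 101 cells, and Klrg1 was found in 80.2% of these against 21.9% of the 32 cells without Il1rl1. Gata3 went with it in the same way, at 92.1% against 50.0%, and Areg at 78.2% against 59.4%. Ccr8 was detected in 52.5% and 34.4%. General regulatory T cell markers were also detected less often in the cells without Il1rl1: Il2ra in 53.1% against 91.1%, Tnfrsf4 in 71.9% against 100%, Tnfrsf9 in 78.1% against 99.0% and Ikzf2 in 87.5% against 100%. The cells with and without Il1rl1 had median depths of 12069 and 11228 UMIs. Detection also went with the Foxp3 count. Over all 141 cells, Il1rl1 was found in 51.5% of those with 1 Foxp3 UMI and 87.1% of those with 3 or more. For Il2ra these shares were 57.6% and 90.3%. All of this describes detection in single cells of 4 libraries and was not tested, nor was the part of the Foxp3 count in it. For Ccr7 the shares were close: Il1rl1 was found in 74.4% of the 43 cells with Ccr7 and in 76.7% of the 90 cells without it, although the cells with Ccr7 were deeper (median 15243 against 11326 UMIs). The division marker Mki67 was detected in 23 of the 141 cells (3, 6, 12 and 2 by library), or 16.3%, against 6.62% of the CD4 cells without Foxp3 and 19.4% of the CD8 cells, and thinned to 2000 UMIs the shares were 4.96%, 0.735% and 8.39%.

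Between the genotypes the regulatory T cell markers showed no difference past the threshold. Il2ra had 563 and 486 CPM in the DKO-labelled and 347 and 474 CPM in the TKO-labelled libraries (log2 fold change of TKO-labelled against DKO-labelled libraries -0.36 ± 0.27, edgeR adjusted p = 0.998). Ikzf2 had 2581 and 2202 CPM in the DKO-labelled and 2142 and 3752 CPM in the TKO-labelled libraries (0.30 ± 0.27), and Tnfrsf4 had 979 and 699 CPM in the DKO-labelled and 907 and 1292 CPM in the TKO-labelled libraries (0.39 ± 0.26). Il1rl1 had 909 and 534 CPM in the DKO-labelled and 422 and 1037 CPM in the TKO-labelled libraries (0.01 ± 0.50), so that the TKO-labelled libraries held both the lowest and the highest level. The Il2ra groups did not overlap, as was so for 2532 of 7483 tested genes, while those of the other 3 genes did. Foxp3 itself, used by the rule, stood at 300.4 and 272 CPM in the DKO-labelled and 291 and 347 CPM in the TKO-labelled libraries.

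In the Foxp3 T cells, 15 of 7483 tested genes (0.2%) passed between the genotypes, 1 higher and 14 lower in the TKO-labelled libraries. The lower genes were Ccl2, Pi16, Tnxb, Tnfaip6, Csmd1, Clec3b, Ly6c1, Ackr3, Dpt, Fos, Slc4a4, Col14a1, Col6a3 and Apod, of which several, such as the collagens, dermatopontin (Dpt) and Pi16, are known from fibroblasts. The 8 marker-rich cells held 85.5 to 99.1% (median 97.9%) of the UMIs of these 14 genes in the DKO-labelled Foxp3 T cells. Pi16 had 1025 and 836 CPM in the DKO-labelled and 31.3 and 9.55 CPM in the TKO-labelled libraries (-5.30 ± 0.46, edgeR adjusted p = 0.0081), and a single cell supplied 380 of the 382 UMIs in DKO-labelled replicate 1. Ccl2, a chemokine that draws monocytes, had 1317 and 892 CPM in the DKO-labelled and 99.2 and 82.7 CPM in the TKO-labelled libraries (-3.58 ± 0.31, edgeR adjusted p = 0.0081). Without the 8 cells Ccl2 had 68.4 and 61.1 CPM in the DKO-labelled and 105 and 85.9 CPM in the TKO-labelled libraries, and the change was 0.59 ± 0.32 (SE, edgeR adjusted p = 0.93). The summed fibroblast markers (Col1a1, Col1a2, Col3a1, Dcn and Lum) were 8532, 10252, 3554 and 373 CPM by library with the 8 cells and 338, 341, 330 and 373 CPM without them. With the 8 cells left out, 2 of 6013 genes passed (0.0333%), and Dscaml1 was the 1 gene called both ways. The number of calls hung on single libraries: with all 141 cells it was 37, 266 and 51 without DKO-labelled replicate 1, TKO-labelled replicate 1 and TKO-labelled replicate 2.

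Dscaml1 (ENSMUSG00000032087, chromosome 9, 45426628 to 45753712, mm10), a cell adhesion gene known from the nervous system, was higher in the TKO-labelled Foxp3 T cells. It had 2 and 0 UMIs in the DKO-labelled libraries, from 1 and 0 cells, and 316 and 113 UMIs in the TKO-labelled libraries, from 32 of 51 and 10 of 25 cells. The groups lay far apart, and no single cell supplied more than 35 of these UMIs. The ratio of the summed levels was 204 (56.0 to 1687, a counting interval), or 164 (45 to 1355) without the 8 marker-rich cells, and the edgeR adjusted p was 0.0081 with and 1.0e-04 without them. Dscaml1 stayed called under all 20 alternatives in which it was tested, including each library left out in turn. In the other CD3 cells Dscaml1 was found in 11 of 889 cells, with 3, 1, 25 and 34 UMIs by library, and in 5 of 948 neutrophils. The change in the Foxp3 T cells was not shown to differ from that in the other CD3 cells (log2 difference 4.47 ± 1.09, edgeR adjusted p = 0.54). That test recovered 5% of 200 genes changed 4-fold in simulated counts, so it does not show that the changes were alike.

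AA467197 (ENSMUSG00000033213, chromosome 2, 122636986 to 122641191, mm10) passed once the 8 cells were left out, and is named for that reason, after its values were seen. It then had 591 and 394 CPM in the DKO-labelled and 129.7 and 145 CPM in the TKO-labelled libraries, with no overlap, and a log2 fold change of -1.84 ± 0.27 (SE, edgeR adjusted p = 0.035). With all 141 cells it had 472 and 254 CPM in the DKO-labelled and 342 and 140.0 CPM in the TKO-labelled libraries (-0.55 ± 0.49, edgeR adjusted p = 0.998), and 224 of the 327 UMIs in TKO-labelled replicate 1 came from 1 cell. Next in order of p without the 8 cells, and not past the threshold, were among others Cpm, a carboxypeptidase (1.90 ± 0.35, edgeR adjusted p = 0.11), the lipid receptor Gpr55 (-2.33 ± 0.43, edgeR adjusted p = 0.11), the T cell signalling gene Themis (1.76 ± 0.35, edgeR adjusted p = 0.11) and Ccr7 (1.56 ± 0.31, edgeR adjusted p = 0.11). Ccr7 had 79.2 and 70.3 CPM in the DKO-labelled and 258 and 172 CPM in the TKO-labelled libraries in that set. Its groups did not overlap, as was so for 2094 of 6013 tested genes.

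**Figure D5:**
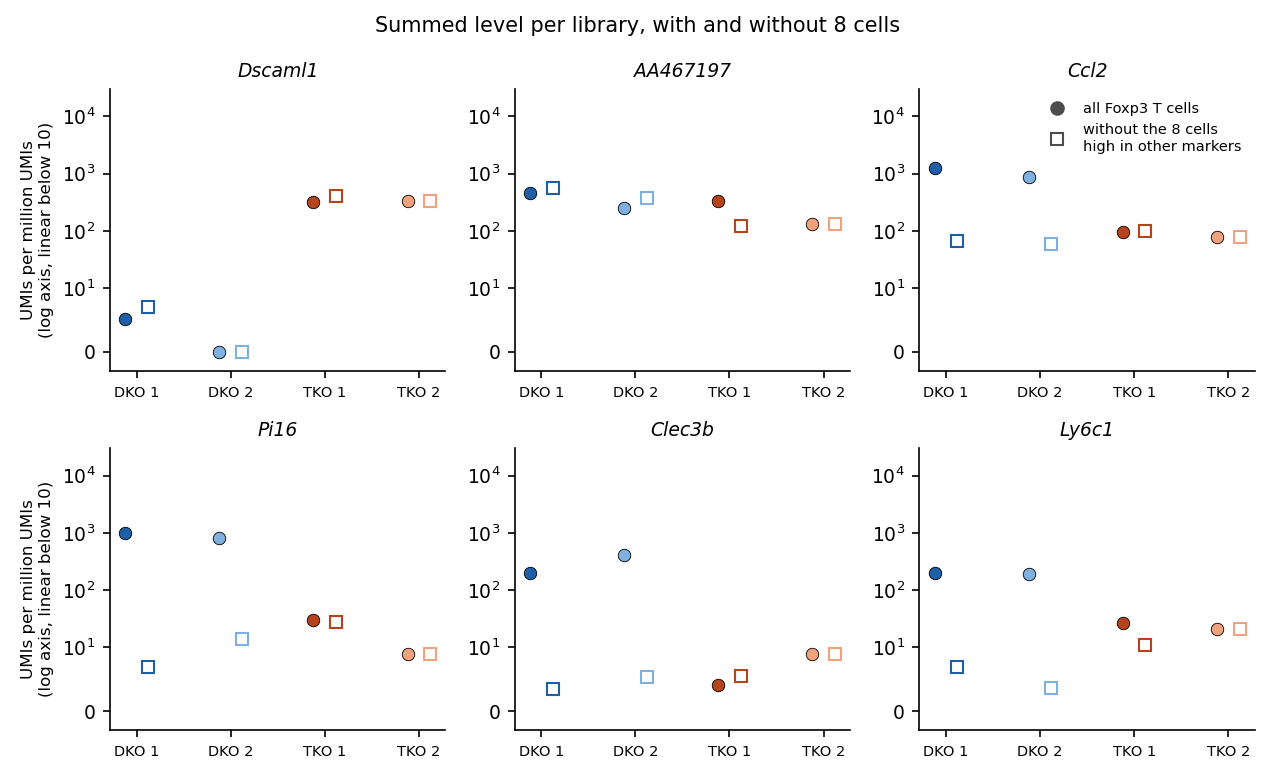
CPM of 6 genes in the Foxp3 T cells of each library (log axis, linear below 10), for all 141 cells (filled circles) and without the 8 cells rich in another class's markers (open squares). Dscaml1 is at 0 to 10 in the DKO-labelled and above 300 in the TKO-labelled libraries either way, whereas the DKO-labelled levels of Ccl2, Pi16, Clec3b and Ly6c1 drop by more than 10 times when the 8 cells are left out.

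No gene list held a gene past the threshold between the genotypes in the Foxp3 T cells, other than Fos of the dissociation and heat shock list with all 141 cells. Of 14 tested core genes 8 had a positive log2 fold change (median 0.03 against 0.01 over all tested genes), and of 21 tissue and effector genes 16 did (median 0.27). Without the 8 cells these medians were -0.15 and 0.03. Itgb8 had 139 and 177 CPM in the DKO-labelled and 366 and 328 CPM in the TKO-labelled libraries (1.12 ± 0.28, edgeR adjusted p = 0.32), and Gzmb had 85.8 and 126 CPM in the DKO-labelled and 50.1 and 28.6 CPM in the TKO-labelled libraries (-1.37 ± 0.40, edgeR adjusted p = 0.5). Both were without overlap, as were 2532 of 7483 tested genes, and neither passed. Of 12 type I interferon genes 11 were positive (median 0.70), and without the 8 cells 9 of 11 (median 0.70), among them Isg15 (0.91 ± 0.30). The dissociation and heat shock list had a median of -0.41 with all cells and 0.13 without the 8, and cell division had 0.13 and 0.69. On simulated counts of the 4 sums with all 141 cells, none of 200 genes changed 2-fold and 57% of 200 changed 4-fold were recovered. At 4-fold 15 of the unchanged genes were called.

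Whether the genotype difference in the Foxp3 T cells departs from that in the other CD3 cells was tested as an interaction. None of 10926 tested genes passed in edgeR (0%), while 527 had an unadjusted p under 0.05 and DESeq2 called 13. On simulated counts this edgeR test recovered 0.5% of 200 genes changed 2-fold and 5% of 200 changed 4-fold. With so few recovered, the lack of calls cannot show that the change was alike in both classes. Among the 8 genes with the smallest p were the macrophage gene Lyz2 (log2 difference 2.54 ± 0.31, edgeR adjusted p = 0.12) and Ccl2 (-2.30 ± 0.29, edgeR adjusted p = 0.12), along with the epithelial genes Sprr2d and Pigr. Lyz2 had 37.0, 12.5, 432 and 34.1 CPM in the Foxp3 T cells, where TKO-labelled replicate 1 stood apart, and 525, 131, 897 and 74.7 CPM in the other CD3 cells. Without the marker-rich cells 2 of 8905 genes passed (0.0225%), Palld and Acod1. Palld, which encodes an actin-binding protein, had 168, 43.2, 332 and 396 CPM in the Foxp3 T cells and 250.2, 101, 49.9 and 68.4 CPM in the other CD3 cells. It was higher in the TKO-labelled Foxp3 T cells and lower in the TKO-labelled other CD3 cells, without overlap in either class. In these Foxp3 T cells 2094 of 6013 tested genes had no overlap between the genotypes, and that share was not counted in the other CD3 cells. With all cells, 86 genes passed without DKO-labelled replicate 1, 4 without DKO-labelled replicate 2, 66 without TKO-labelled replicate 1 and 99 without TKO-labelled replicate 2.

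In the 133 Foxp3 T cells left without the 8, TKO-labelled replicate 1 held the most macrophage and CD8 transcripts. Monocyte and macrophage markers (8 genes) were 118, 75.0, 758 and 65.7 CPM summed in DKO-labelled replicates 1 and 2 and TKO-labelled replicates 1 and 2. Neutrophil markers (6 genes) were 192, 195, 121 and 89.6 CPM, epithelial markers (6 genes) 73.2, 60.7, 44.3 and 65.7 CPM and CD8 markers (2 genes) 17.4, 16.1, 92.9 and 20.9 CPM. Endothelial markers (4 genes) were 97.6, 96.4, 97.0 and 329 CPM, so that TKO-labelled replicate 2 stood apart, and Cdh5, Kdr and Emcn had UMIs in that library alone. The limit of 20 UMIs did not use the endothelial list. No mast cell marker (Cpa3, Mcpt4, Tpsb2, Cma1, Fcer1a) had a UMI in any of the 141 cells. Type 2 innate lymphoid cells share Il1rl1 and Gata3 with these cells. Of their 4 listed markers, Il5 had no UMI in any library and Il13 none in DKO-labelled replicate 1 and TKO-labelled replicate 2. The other 2 markers were detected in every library. The 4 markers summed to 103, 24.2, 26.3 and 149 CPM by library in all 141 cells. Without the 8 cells the sums were 139, 26.8, 36 and 149 CPM. The part of these other cell types' transcripts in the genotype results was not tested beyond the values without the 8 cells.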

How the data were processed

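The deposited matrices hold UMI counts per gene and cell barcode for 4 libraries (2 DKO-labelled, 2 TKO-labelled), which the authors made, per the submitters' processing notes, with Cell Ranger 7.0.0 and STAR on mm10. How intronic reads were counted and cells called is not stated there. The 32285 genes and 6 hashtags were kept apart, and 3381 of 3508 barcodes passed the filters. Reads were not used. UMIs were summed per library and class and tested with the quasi-likelihood test of edgeR 4.0.16 (robust fit, filterByExpr for low counts, TMM scaling, Benjamini-Hochberg adjustment over all tested genes, threshold 0.05) in R 4.3.3, with the library as a block between cell classes and genotype alone between genotypes. CPM of a gene comparison use that fit's TMM library sizes, so a level can differ slightly between comparisons. Standard errors are those implied by the fitted change and its quasi-likelihood F statistic. DESeq2 1.42.0 was an alternative. Each gene comparison was checked on simulated counts of all its cells, but the fits without the marker-rich cells were not. Positions come from GENCODE M21 by gene ID, of which 32158 matched.

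Depth was 9167770 to 18360201 UMIs per library, and binomial intervals and counting intervals cover counting error only. Foxp3 T cells were defined by at least 2 CD3 UMIs and 1 Foxp3 UMI. CD4 cells without Foxp3 had a Cd4 UMI and no Cd8a or Cd8b1 UMI, CD8 cells had a CD8 UMI and no Foxp3, and neutrophils had at least 10 summed UMIs of S100a8 and S100a9, 1 of Csf3r and no CD3 UMI. Named genes were the 12 higher and 12 lower with the smallest p among called genes reaching 20 CPM in the higher group (between genotypes also without overlap of libraries), the 8 with the smallest p where fewer than 3 passed, the markers, and up to 4 of each list. AA467197 and the other genes named without the marker-rich cells, and some list members, were chosen after their values were seen. The members, lists and tests were chosen with earlier results of these data known. Replicate numbers in the labels link no animals or days across genotypes. Some items are not reported here. Alternatives changed the scaling, low-count filter, tool, UMI minimums, cell filters and libraries.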

Additional observations from a re-analysis of the deposited data

Results flagged for a closer look

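Palld differed between cell classes once cells with at least 20 UMIs of another class's markers were left out. Its TKO-labelled against DKO-labelled change in the Foxp3 T cells exceeded that in the other CD3 cells by 3.50 ± 0.30 on the log2 scale (SE, edgeR adjusted p = 3.2e-04). With all cells the difference was 2.75 ± 0.32 (SE, edgeR adjusted p = 0.12). Acod1, which encodes the itaconate-forming enzyme of myeloid cells, differed in the same test by 3.73 ± 0.53 (SE, edgeR adjusted p = 0.042). It had 3.49, 28.8, 35.5 and 15.9 CPM in the Foxp3 T cells of DKO-labelled replicates 1 and 2 and TKO-labelled replicates 1 and 2, and 59.5, 309.7, 24.0 and 22.6 CPM in the other CD3 cells, so most of the contrast lay in the DKO-labelled other CD3 cells. With all cells its difference was 3.54 ± 0.59 (SE, edgeR adjusted p = 0.26).

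The matrices also hold 2 hashtag features that no label names. In the 141 Foxp3 T cells a0307 had 535 UMIs and a0308 had 593 UMIs, a median of 3 per cell for each, or 0.177% and 0.196% of their hashtag UMIs.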

How the results depend on the processing

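The TKO-labelled mean share of CD3 cells and of all kept cells stayed below the DKO-labelled mean under every alternative run, though single libraries overlapped under some. Without cells holding 2 or more UMIs of another class's markers, DKO-labelled replicate 2 (2 of 25 CD3 cells) lay in share below both TKO-labelled libraries (6 of 34 and 5 of 55). The difference of means of all kept cells was -3.80 points when that limit did not use the fibroblast list. The limit also took cells out of the denominators, which then held 187, 282, 477 and 404 kept cells (DKO-labelled replicates 1 and 2, then TKO-labelled). Leaving out 1 library gave -8.80 to -3.15 and -1.54 to -0.454 points. Many counts of called genes moved by more than 1.5 times, and the cause was not tested. For TKO-labelled against DKO-labelled Foxp3 T cells (15 genes), they were 36 with DESeq2, 4 with a Foxp3 minimum of 2 UMIs, 241 without a low-count filter and 18 to 266 with 1 library left out. Without the marker-rich cells they were 2, with DESeq2 6 and with 1 library left out 13 to 56, and without cells holding 2 or more UMIs of another class's markers 1, also when the fibroblast list was not used. With the replicate number as a block there were 41 calls, and 55 without the marker-rich cells. The numbers give no shared animal or day, and same-numbered libraries deviated from their group means with a correlation of -0.12 over 7487 genes, so they do not pair the libraries. A crossed pairing gave 20 calls. For Foxp3 T cells against other CD3 cells (754), counts were 444 to 600 with 1 library left out, 1546 without the marker-rich cells (DESeq2 1245, 1 library left out 1134 to 1264) and 175 under the limit of 2 UMIs, which left 7, 2, 6 and 5 members. Against CD4 cells (355), they were 640 without a filter, 158 to 335 with 1 library left out and 547 without the marker-rich cells. The limit of 2 UMIs was not run there, with too few CD4 cells left. The interaction (0) gave 13 with DESeq2, 160 without a filter, 4 to 99 with 1 library left out, 2 without the marker-rich cells (DESeq2 1) and 2 under the limit of 2 UMIs.

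Between genotypes some log2 fold changes turned sign. Without the marker-rich cells Ccl2 was 0.59 (DESeq2 0.57, block 0.55). Over all fits that left out 1 library, with and without the marker-rich cells, Ccl2 ran from -3.83 to 0.70, Pi16 from -6.58 to 1.28, Tnfaip6 from -4.77 to 0.50, Ly6c1 from -3.18 to 2.08, Fos from -2.30 to 0.36, Ikzf2 from -0.19 to 0.64 and Il1rl1 from -0.88 to 0.52, and the positive values of the first 5 genes all came from fits without the marker-rich cells. Il2ra was 0.59 under the limit of 2 UMIs. Ikzf2 was -0.12 there, -0.19 without use of the fibroblast list and -0.15 without TKO-labelled replicate 2. Il1rl1, at 0.01 with all cells, was -0.11 with a Foxp3 minimum of 2 UMIs, -0.00257 in cells of at least 5000 UMIs, -0.076 and -0.0742 with crossed and same replicate numbers as a block, -0.28 without cells with a Cd8 UMI, and -0.16 and -0.38 under the limit of 2 UMIs with and without the fibroblast list. Without the marker-rich cells it was -0.30, with DESeq2 -0.31 and with the block -0.35. None of these Ikzf2, Il2ra or Il1rl1 values passed the threshold. With 25 to 51 Foxp3 T cells per library, 0 of 200 genes changed 2-fold between genotypes were recovered in simulated counts of all 141 cells. The fits without the marker-rich cells were not simulated.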
